A study of Homo sapiens with 6 samples.

Results

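The genes that make and sense cholesterol and fatty acids were examined in IMR90 cells, a human fetal lung fibroblast line, that expressed ARID1B, a DNA-binding subunit of the SWI/SNF chromatin remodelling complex. The set held 31 genes, named by symbol for their place in the pathways, out of 57232 genes in the RNA-seq table. All 31 were found, 7 for the early mevalonate steps, 11 for the steps from squalene to cholesterol, 6 for sterol sensing and transport and 7 for fatty acid synthesis and desaturation. It is not a complete list of either pathway. Of the 31 genes, 30 passed a filter of a mean of at least 1 FPKM (a unit corrected for gene length and sequencing depth) and were tested among 10416 genes. The sterol demethylase gene CYP51A1 did not.

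Cells at passage 13 were infected with an empty vector (3 libraries) or with ARID1B cDNA (3 libraries) and were otherwise unmodified. Both groups were selected with puromycin until day 4, grown in DMEM with 10% FBS and collected on day 6. The paper calls the libraries biological replicates. The comparison asks which transcripts differ when ARID1B is raised in fibroblasts that have not been given an oncogene. IMR90 is a single line, and the promoter that drives the cDNA is not given in the sources used here.

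Cholesterol is built from acetyl-CoA through mevalonate, farnesyl diphosphate, squalene and lanosterol, and the same acetyl-CoA feeds palmitate synthesis, elongation and desaturation. The transcription factors SREBP-2 (gene SREBF2) and SREBP-1 (gene SREBF1) drive these genes. They are held in the endoplasmic reticulum by SCAP and the INSIG proteins when sterols are plentiful, and are carried to the Golgi and cleaved when sterols run low. SREBP-2 acts mainly on the sterol genes and SREBP-1c on the fatty acid genes. INSIG1 is itself a target and closes a feedback loop. Fibroblasts in serum also take up lipoprotein cholesterol, which keeps the pathway partly repressed.

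SREBPs bind sterol regulatory elements together with NF-Y, which recognises CCAAT boxes. The stretch of 250 bases before the transcription start is shown for 4 genes with 1 start site each in the RefSeq table (GRCh38.p14, all on the + strand): both a regulator and its feedback target, the sterol gene with the highest level and the fatty acid gene with the highest level. They lay at chr22:41832855-41833104 (SREBF2), chr7:155297628-155297877 (INSIG1), chr4:165327419-165327668 (MSMO1) and chr10:100346983-100347232 (SCD). Capitals mark CCAAT or its reverse complement ATTGG, and TCACNCCAC, the letters of a classical sterol regulatory element.

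SREBF2: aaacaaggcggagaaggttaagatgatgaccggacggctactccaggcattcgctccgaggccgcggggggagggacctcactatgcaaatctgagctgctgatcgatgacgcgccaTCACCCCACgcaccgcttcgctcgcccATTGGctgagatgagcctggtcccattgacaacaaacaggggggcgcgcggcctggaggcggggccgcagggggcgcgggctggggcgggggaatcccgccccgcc

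INSIG1: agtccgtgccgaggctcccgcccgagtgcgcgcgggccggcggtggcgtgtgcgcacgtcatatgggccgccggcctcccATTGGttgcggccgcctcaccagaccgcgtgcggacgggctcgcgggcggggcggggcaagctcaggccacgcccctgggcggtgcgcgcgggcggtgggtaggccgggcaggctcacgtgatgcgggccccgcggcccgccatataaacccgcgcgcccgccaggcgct

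MSMO1: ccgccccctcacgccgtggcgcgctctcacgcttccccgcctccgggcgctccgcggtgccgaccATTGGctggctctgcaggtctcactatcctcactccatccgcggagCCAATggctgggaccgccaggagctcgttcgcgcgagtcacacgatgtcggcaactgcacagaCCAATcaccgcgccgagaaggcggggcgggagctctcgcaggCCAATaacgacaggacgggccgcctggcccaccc

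SCD: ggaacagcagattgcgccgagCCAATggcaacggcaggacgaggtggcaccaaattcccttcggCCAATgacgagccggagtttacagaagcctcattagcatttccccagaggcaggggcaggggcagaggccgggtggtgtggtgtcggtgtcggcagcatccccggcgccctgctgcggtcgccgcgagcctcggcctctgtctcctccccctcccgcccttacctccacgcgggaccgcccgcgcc

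All 4 held a CCAAT box, from 1 match in SREBF2 and INSIG1 to 2 in SCD and 4 in MSMO1. The SREBF2 stretch also held TCACCCCAC, which began 133 bases before the start. RefSeq windows of 300 bases, which add 50 bases after the start, were matched for 27 of the 31 genes, with 37 windows in all (no window for ACAT2, FASN, FDFT1 and SQLE). On either strand, CCAAT was found in 24 of the 37 windows (64.9%, 20 genes), against 34.6% of 35116 windows of all genes and 34.7% of those of the genes tested. TCACNCCAC (or GTGGNGTGA) was found in 1 window (2.70%), against 1.13% of all windows. The GC box GGGCGG (or CCGCCC) was in 33 windows (89.2%), against 45.0% of all windows and 68.0% of those of the genes tested. The E-box CACGTG was in 5 (13.5%), against 7.26% and 9.58%. Windows of the same gene can overlap and hold the same boxes, as in ACLY and SC5D, so the windows are not separate promoters. The shares over all genes are by window, and none by gene is given. Matches of different motifs can share bases at their ends, and a match is a description of the sequence only.

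Low FPKM values step in whole reads, from which library totals were recovered. These lay between 63386813 and 91924514 reads or fragments, and a tested pathway gene held from 599 to 62359 of them in a library. Counting error was therefore small beside the spread between libraries for the genes that varied most. For the steadiest it was not, such as MVK (2.13 ± 0.0418 FPKM with the vector, SD, n = 3, and as few as 1371 reads). ARID1B itself stood at 2.29, 1.31 and 2.05 FPKM with the vector and at 32.5, 21.0 and 28.3 FPKM with the cDNA (log2 change 3.29, adjusted p = 0.0255 from limma). Vector replicate 2 stood apart, scoring 48.5 on the leading principal component (63.8% of the variance), against -20.0 to 3.63 for the other libraries. Replicate 3 of each group was compared with a blend of the other replicates. Over the genes tested the best share of replicate 1 was 81.1% with the vector and 70.4% with ARID1B. Over the pathway genes these shares were 85.6% and 64.1%. The blend left a root mean square of 17.8% of the difference between replicates 3 and 2 with the vector and 34.3% with ARID1B (9.97% and 36.4% over the pathway genes), so it was closer for the vector. Vector replicate 3 lay between the other vector libraries for 26 of 30 pathway genes (86.7%, background 85.0%), and ARID1B replicate 3 likewise for 21 (70.0%, background 69.2%). Results are therefore given with and without vector replicate 2, and the p-values treat all libraries as independent. All 7 fibroblast markers were above 1 FPKM, with sums of 1935 to 2552 FPKM in the vector libraries and 1849 to 2553 FPKM with ARID1B. Of 3 endothelial and 4 blood markers none reached 1 FPKM, and their highest single values were 0.327 and 0.0181 FPKM. Of 5 adipocyte markers, ADIPOQ, PLIN1, LEP and CIDEC stood under 0.02 FPKM, and only FABP4 was above 1 FPKM.

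With all libraries, no pathway gene passed the test. At an adjusted p under 0.05 from limma on log2(FPKM + 1), 0 of 30 were higher with ARID1B (0.0288% of all genes tested) and 0 lower (0.0% of all genes). At an unadjusted p under 0.05, 2 were higher, MSMO1 and INSIG2 (4.64% of all genes), and 0 lower (5.94%). In 4 genes every ARID1B library lay above every vector library: HMGCS1, IDI1, MSMO1 and INSIG2 (13.3%, against 9.44% of all genes). In 0 genes did every ARID1B library lie below (11.1% of all genes). The log2 change, ARID1B minus vector, was positive in 20 and negative in 10 of the 30 genes, with a median of 0.07 against -0.02 over all genes tested. It ran from -0.27 (SREBF1) to 0.43 (HMGCS1). The p of an exact permutation test of 3 against 3 libraries cannot go below 0.1.

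**Figure D1:**
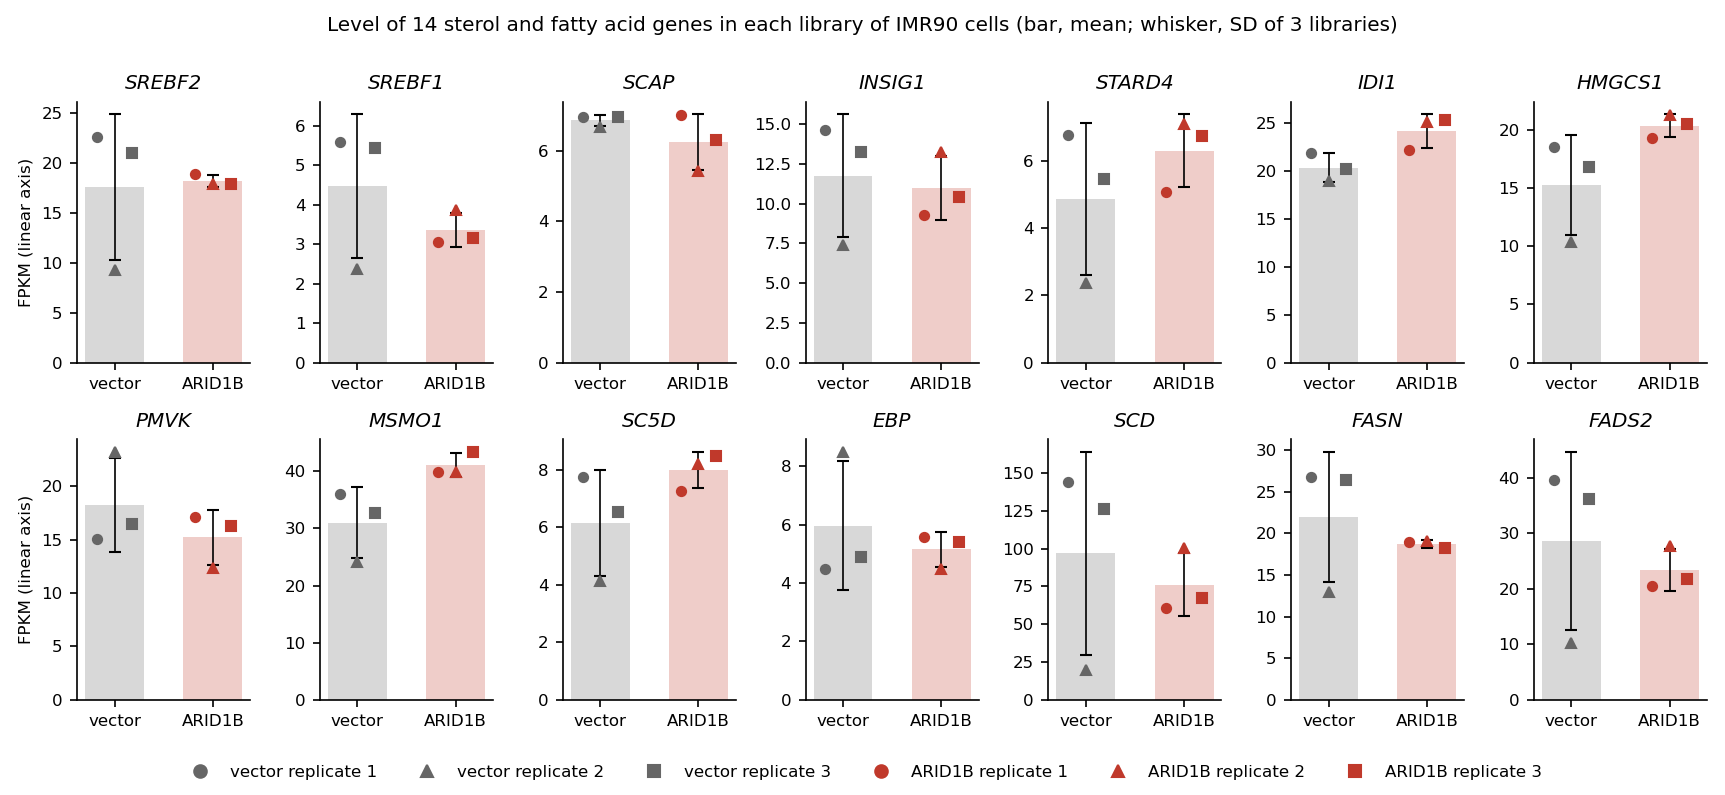
FPKM (linear axes from 0) of 14 genes in each library, gray for the vector and red for ARID1B, with the marker shape giving the replicate. Bars and whiskers are the mean and SD of 3 libraries. Vector replicate 2 (gray triangle) is the lowest point in 11 panels and the highest in PMVK and EBP, and the groups are apart only in IDI1, HMGCS1 and MSMO1.

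None of the 6 genes for sterol sensing and transport passed the test, and the groups were apart only for INSIG2. SREBF2 (ENSG00000198911) stood at 22.5, 9.23 and 20.9 FPKM with the vector (replicates 1, 2 and 3, in this order throughout) and at 18.9, 17.9 and 17.8 FPKM with ARID1B. Vector replicates 1 and 3 lay above every ARID1B library and vector replicate 2 below, so the groups overlapped. Its log2 change was 0.14 (standard error 0.320, adjusted p = 0.879). SREBF1 (ENSG00000072310) stood at 5.60, 2.38 and 5.45 FPKM with the vector and at 3.06, 3.87 and 3.16 FPKM with ARID1B, in the same arrangement. Its log2 change, -0.27 (standard error 0.274, adjusted p = 0.747), was the lowest among the pathway genes. SCAP (ENSG00000114650), the escort of the SREBPs, stood at 6.94, 6.68 and 6.97 FPKM with the vector and at 7.00, 5.43 and 6.30 FPKM with ARID1B. It was the steadiest of the regulators across the vector libraries (6.86 ± 0.159 FPKM, SD, n = 3), and the groups overlapped.

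INSIG1 (ENSG00000186480), the feedback target that retains SCAP, stood at 14.6, 7.37 and 13.3 FPKM with the vector and at 9.29, 13.2 and 10.4 FPKM with ARID1B. Its log2 change was -0.05 (standard error 0.265, adjusted p = 0.950), and vector replicate 2 was again the lowest. Its paralogue INSIG2 (ENSG00000125629), named here after its values were seen, stood at 2.47, 1.95 and 2.28 FPKM with the vector and at 2.64, 2.95 and 2.97 FPKM with ARID1B. These groups did not overlap, and the log2 change was 0.26 (standard error 0.105, unadjusted p = 0.0476, adjusted p = 0.468 from limma). STARD4 (ENSG00000164211), a carrier of cholesterol between membranes, stood at 6.78, 2.38 and 5.47 FPKM with the vector and at 5.07, 7.09 and 6.75 FPKM with ARID1B. ARID1B replicate 1 lay below vector replicates 1 and 3, so the positive log2 change of 0.39 (adjusted p = 0.703) rested on vector replicate 2 and was 0.03 without it.

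Among the 7 early mevalonate genes the log2 change was positive in 5, with a median of 0.07. IDI1 (ENSG00000067064), which isomerises isopentenyl diphosphate, had the highest mean level of this group. It stood at 21.9, 18.9 and 20.2 FPKM with the vector and at 22.2, 25.1 and 25.3 FPKM with ARID1B, so that the lowest ARID1B value lay just above the highest vector value. Its log2 change was 0.24 (standard error 0.115, adjusted p = 0.522). HMGCS1 (ENSG00000112972), the HMG-CoA synthase, stood at 18.6, 10.4 and 16.8 FPKM with the vector and at 19.3, 21.2 and 20.5 FPKM with ARID1B. The groups did not overlap, and the mean was 1.33 times that of the vector (log2 change 0.43, standard error 0.215, adjusted p = 0.538). Without vector replicate 2 it was 1.15 times, with a log2 change of 0.19. PMVK (ENSG00000163344), phosphomevalonate kinase, stood at 15.1, 23.3 and 16.4 FPKM with the vector and at 17.1, 12.3 and 16.3 FPKM with ARID1B. Here vector replicate 2 was the highest library, and ARID1B replicate 2 the lowest. The log2 change was -0.24 (adjusted p = 0.713) with all libraries and -0.06 without vector replicate 2. The thiolase ACAT2 (0.23), mevalonate kinase MVK (0.07), the decarboxylase MVD (-0.09) and farnesyl diphosphate synthase FDPS (0.00) had log2 changes with adjusted p from 0.645 to 0.995. In the GENCODE v29 annotation 33.9% of the ACAT2 exon bases overlap a long noncoding RNA on the other strand, and FDPS has 8 pseudogenes named after it, so their values are less certain if reads were counted without strand or split between copies.

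From squalene to cholesterol, 10 of 11 genes were tested, and the log2 change was positive in 7 with a median of 0.14. MSMO1 (ENSG00000052802), a methylsterol oxidase and the highest of these genes, stood at 36.1, 24.1 and 32.8 FPKM with the vector and at 39.9, 39.9 and 43.5 FPKM with ARID1B. All ARID1B libraries lay above all vector libraries, at 41.1 ± 2.05 against 31.0 ± 6.20 FPKM (SD, n = 3). The log2 change was 0.42 (standard error 0.169, unadjusted p = 0.0471, adjusted p = 0.467 from limma), and 0.25 without vector replicate 2. SC5D (ENSG00000109929), the lathosterol oxidase, stood at 7.76, 4.14 and 6.51 FPKM with the vector and at 7.27, 8.21 and 8.49 FPKM with ARID1B. ARID1B replicate 1 lay below vector replicate 1, and the log2 change was 0.37 (standard error 0.208, adjusted p = 0.590), and 0.15 without vector replicate 2. EBP (ENSG00000147155), a sterol isomerase, stood at 4.50, 8.51 and 4.91 FPKM with the vector and at 5.59, 4.48 and 5.40 FPKM with ARID1B. Only vector replicate 2 lay outside the range of the others, and the log2 change turned from -0.14 (adjusted p = 0.826) to 0.11 without it.

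The other sterol genes had log2 changes from -0.04 to 0.33. They were 0.33 for DHCR7, which catalyses the last reduction to cholesterol, 0.28 for the squalene epoxidase SQLE and 0.15 for the sterol reductase TM7SF2. These became 0.12, 0.03 and -0.02 without vector replicate 2. The sterol dehydrogenases HSD17B7 and NSDHL stood at 0.13 and 0.01, the squalene synthase FDFT1 at -0.01 and the lanosterol synthase LSS at -0.04. Their adjusted p ran from 0.620 to 0.982. CYP51A1 (ENSG00000001630), below the filter, stood at 0.544, 0.182 and 0.543 FPKM with the vector and at 0.697, 0.260 and 0.492 FPKM with ARID1B. These values came from 88 to 261 recovered reads a library and were lowest in replicate 2 of each group. A protein-coding gene of GENCODE v29 that is not in the table overlaps 79.4% of its exon bases on the same strand, so its level is uncertain.

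The fatty acid genes held the largest differences between libraries. SCD (ENSG00000099194), the stearoyl-CoA desaturase that makes oleate and palmitoleate, had the highest level of all 31 genes. It stood at 144, 19.8 and 127 FPKM with the vector and at 60.9, 100.2 and 67.5 FPKM with ARID1B. The vector group held both the highest and the lowest library, with a SD of 67.4 FPKM around a mean of 96.9 FPKM (n = 3). The log2 change was 0.05 with a wide 95% interval from -1.75 to 1.85 (limma), which does not settle the direction of the change. FASN (ENSG00000169710), the fatty acid synthase, stood at 26.7, 13.01 and 26.4 FPKM with the vector and at 19.0, 19.1 and 18.2 FPKM with ARID1B. The ARID1B libraries lay close together, between vector replicate 2 and the other vector libraries. Its log2 change was -0.15 (standard error 0.275, adjusted p = 0.838).

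FADS2 and FADS1, the desaturases of polyunsaturated fatty acids, were described after their values were seen. FADS2 (ENSG00000134824) stood at 39.6, 10.2 and 36.1 FPKM with the vector and at 20.6, 27.7 and 21.8 FPKM with ARID1B. FADS1 (ENSG00000149485) stood at 15.7, 4.04 and 13.7 FPKM with the vector and at 9.40, 15.3 and 10.8 FPKM with ARID1B. The exons of these genes overlap on opposite strands (4.79% of FADS1 and 4.44% of FADS2 bases in GENCODE v29), and FADS2 and SCD each have 1 pseudogene named after them. The 3 desaturase genes were arranged alike, with vector replicate 2 the lowest of all libraries and ARID1B replicate 2 the highest of its group. The arrangement was not particular to them. HMGCS1, SQLE, HSD17B7, INSIG1, SREBF1, STARD4 and FASN had it too, as did the fibroblast markers COL1A1, COL1A2, COL3A1, PDGFRB and DCN. SCD, FADS1 and FADS2 were 1.56, 1.51 and 1.31 times as high in ARID1B replicate 2 as in the mean of ARID1B replicates 1 and 3. INSIG1 was 1.34 times as high. The citrate lyase ACLY, which supplies cytosolic acetyl-CoA, differed from them, at 49.4, 58.3 and 50.9 FPKM with the vector and 63.2, 47.9 and 57.4 FPKM with ARID1B. The acetyl-CoA carboxylase ACACA and the elongase ELOVL6 had log2 changes of 0.05 and 0.14 (adjusted p = 0.940 and 0.680 from limma).

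**Figure D2:**
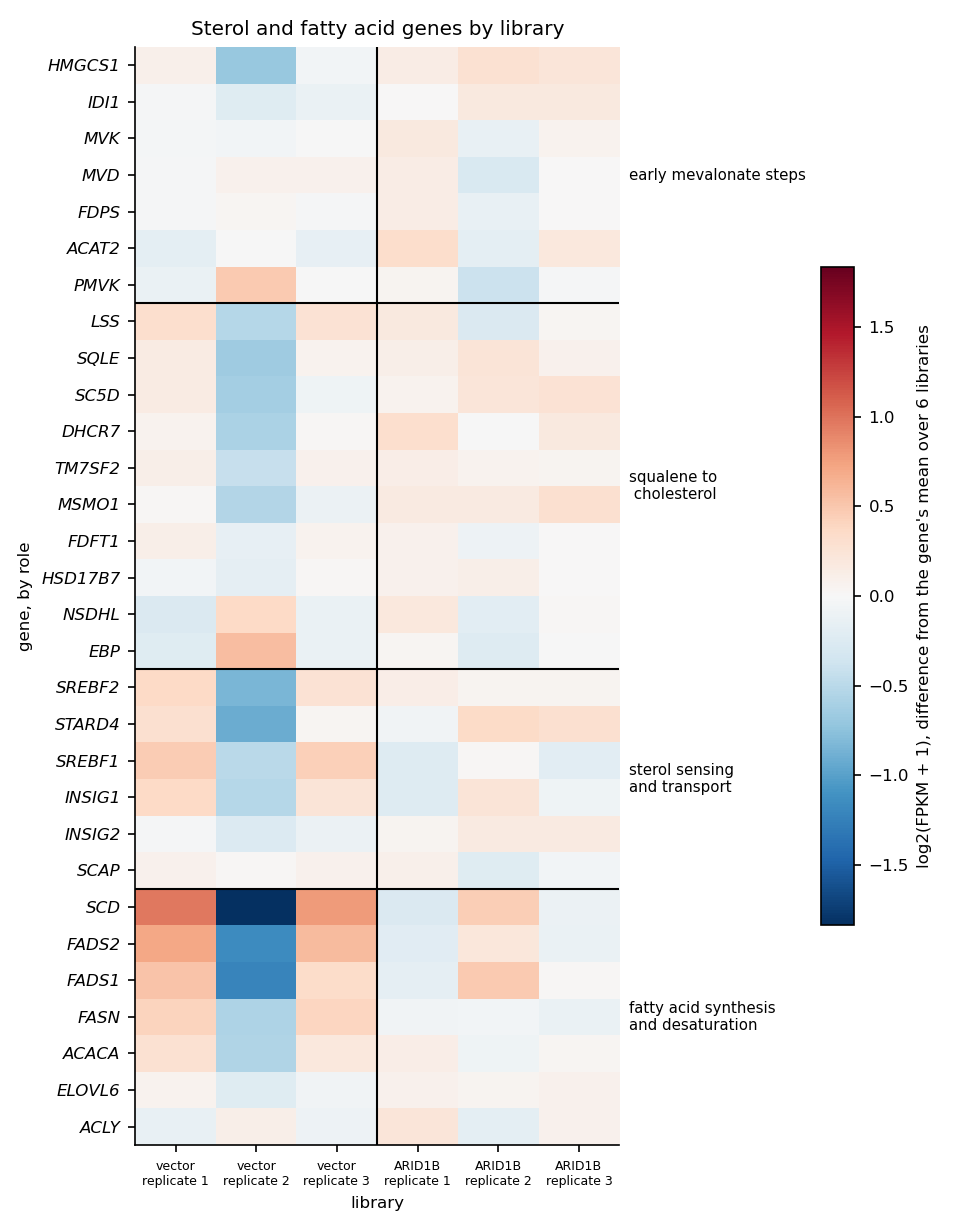
Difference of log2(FPKM + 1) from the gene's mean over the 6 libraries, for the 30 genes tested (rows, grouped by role and ordered by vector replicate 2) and the 6 libraries (columns). Blue is lower and red higher. Vector replicate 2 is blue for most genes outside the early mevalonate steps, most deeply for SCD, FADS1 and FADS2.

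Vector replicate 2 was the library in which the pathway genes differed most. It held the lowest of the 6 values for 21 of 30 genes (70.0%, against 37.5% of all genes tested) and the highest for 3, PMVK, NSDHL and EBP (10.0%, against 39.5%). Against the mean of vector replicates 1 and 3, its log2 difference had a median of -0.50 over the pathway genes and 0.01 over all genes. By role, with no test, its median was 0.04 for the early mevalonate steps, -0.50 from squalene to cholesterol, -0.89 for sterol sensing and transport and -0.98 for fatty acid synthesis and desaturation. In 5 genes, SREBF2, STARD4, SCD, FADS1 and FADS2, vector replicate 2 was lower by over 1 on the log2 scale (16.7%, against 5.80% of all genes). The mean of vector replicates 1 and 3 was 6.86 times vector replicate 2 for SCD, 3.73 times for FADS2, 3.64 times for FADS1, 2.58 times for STARD4 and 2.35 times for SREBF2. These are values of 1 library and carry no test. Of the 7 fibroblast markers, the same library had the lowest value for 5, such as COL3A1 (38.3 FPKM, against 125 to 282 in the others), and the highest for 2, THY1 (73.2 FPKM, against 58.9 to 61.5) and VIM (846 FPKM, against 428 to 622). It also had the highest KRT19, an epithelial marker (14.3 FPKM, against 3.84 to 6.30). The other epithelial markers stood under 0.3 FPKM in every library, and SFTPC was at 0. The part of these differences in the pathway genes' values was not tested. In bulk RNA, fewer cells with a transcript and less of it per cell cannot be told apart.

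Without vector replicate 2, at an adjusted p under 0.05 from limma, 2 of 30 genes were lower with ARID1B, SREBF1 and FASN (1.91% of all genes), and 0 were higher (1.20% of all genes). Neither passed once GC content and length were corrected for as well (adjusted p = 0.134 and 0.148 from limma). The library left out was singled out from these same data and held the lowest value for both genes. The p-values do not allow for that choice. SREBF1 stood at 3.36 FPKM against 5.52 FPKM in vector replicates 1 and 3, 0.609 times as high. Its log2 change was -0.58 (standard error 0.101, adjusted p = 0.0482). FASN stood at 18.8 against 26.6 FPKM, 0.706 times as high (log2 change -0.48, standard error 0.0723, adjusted p = 0.0426). At an unadjusted p under 0.05, 5 genes were lower, these and SREBF2, SCD and FADS2 (13.7% of all genes), and 2 higher, MSMO1 and INSIG2 (10.0% of all genes). SCD stood at 76.2 against 135 FPKM (log2 change -0.85, standard error 0.224, adjusted p = 0.103). FADS2 stood at 23.3 against 37.8 FPKM (log2 change -0.68, standard error 0.143, adjusted p = 0.0718). For SREBF2 the log2 change was -0.24 (standard error 0.0783, adjusted p = 0.141).

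In 8 genes all ARID1B libraries lay below vector replicates 1 and 3, namely LSS, INSIG1, SREBF1, SREBF2, ACACA, FASN, SCD and FADS2 (26.7%, against 23.9% of all genes). In 4 they lay above, HMGCS1, IDI1, MSMO1 and INSIG2 (13.3%, against 18.8%). Both shares were near those of all genes. By role, the median log2 change was 0.06 for the early mevalonate steps, 0.09 from squalene to cholesterol, -0.19 for sterol sensing and transport and -0.31 for fatty acid synthesis and desaturation. It was -0.01 over all genes. The vector group then held only replicates 1 and 3, of which the latter lay near a blend of replicates 1 and 2, so the standard errors may be too small. The corrected log2 changes without this library were -0.44 for SREBF1 and -0.28 for FASN.

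**Figure D3:**
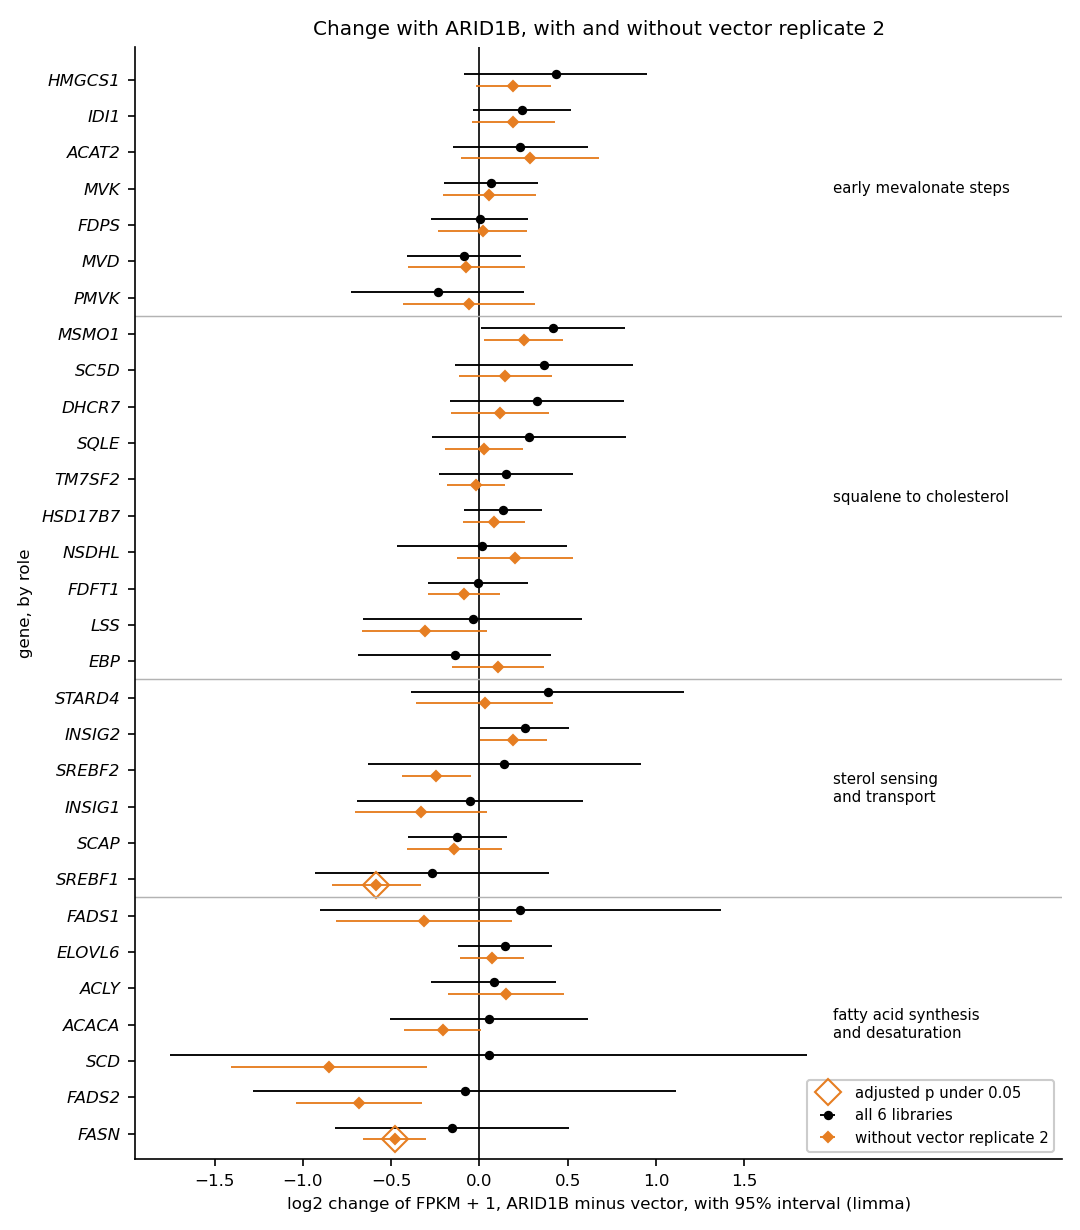
Log2 change of FPKM + 1, ARID1B minus vector, with its 95% interval (limma) for the 30 genes tested, grouped by role. Black circles use all 6 libraries and orange diamonds leave out vector replicate 2. Black intervals of the fatty acid genes are wide, from -1.75 to 1.85 for SCD, and without vector replicate 2 the intervals narrow and SREBF1 and FASN (open diamonds) pass an adjusted p of 0.05 on the lower side.

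The log2 change of the pathway genes moved with the GC content of their transcripts. Over the 30 genes Spearman's rho was -0.69 and Pearson's r -0.71, and over 10285 genes with a length and GC content they were -0.55 and -0.47. These correlations run across genes of the same 6 libraries, which are not independent. The 4 genes with the largest positive change had 34.2% (STARD4), 38.1% (MSMO1), 38.6% (SC5D) and 40.2% GC (HMGCS1). SREBF1, PMVK and FASN, with the lowest changes, had 62.8%, 59.5% and 65.3% GC. Among the 13 genes under 50% GC the median log2 change was 0.24, with 11 positive. Among the other 17 it was 0.00, with 9 positive and 8 negative. With GC content and length corrected for across the whole table, these medians were 0.12 and 0.09. Without vector replicate 2 Spearman's rho was -0.49 over the pathway genes and -0.27 over all genes. The difference of vector replicate 2 from the other vector libraries had a rho of 0.08 with GC content over the pathway genes and 0.36 over all genes. After the correction the log2 change was 0.34 for MSMO1 and 0.32 for HMGCS1, and it was 0.51 for DHCR7. These corrected values were 0.17, 0.12 and 0.19 without vector replicate 2.

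**Figure D4:**
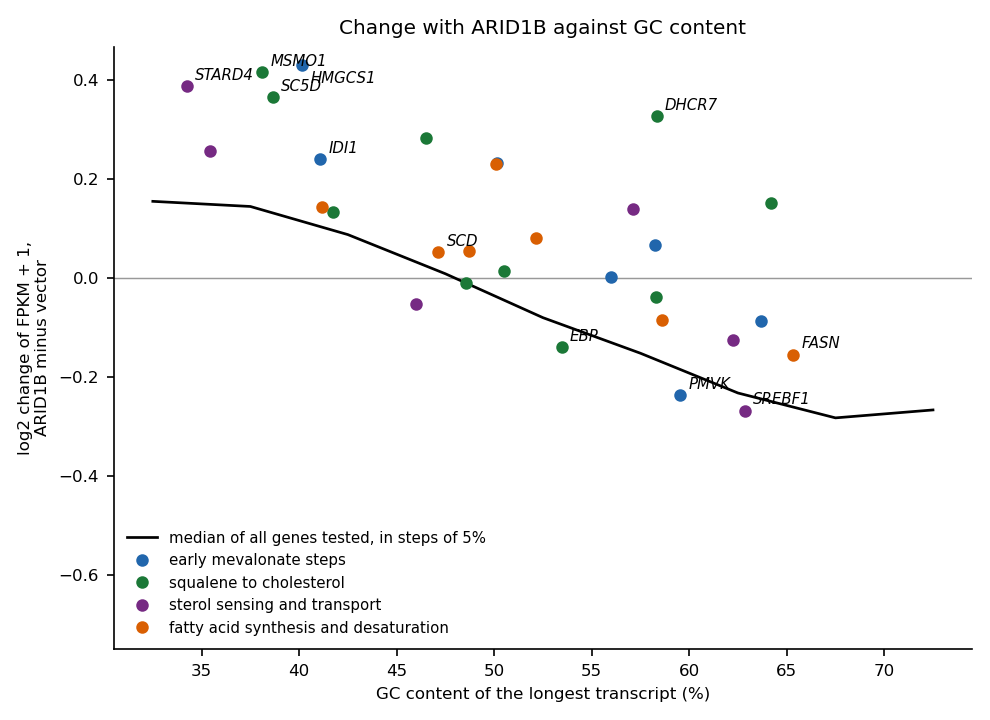
Log2 change of FPKM + 1 (ARID1B minus vector, all libraries) against the GC content of the longest transcript, for the 30 genes coloured by role. The black line joins the medians of all genes tested in steps of 5% GC, which go from 0.15 at 30 to 35% to -0.23 at 60 to 65%. STARD4, MSMO1, SC5D and HMGCS1 lie at the upper left and SREBF1, PMVK and FASN at the lower right, while DHCR7 (0.33 at 58.3% GC) lies above the line.

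Other genes around these pathways were counted from lists. All 7 genes for SREBP release and sterol-dependent degradation had a positive log2 change, from 0.17 to 0.34, with a median of 0.25, and 0 passed the test. Over all genes tested 4963 of 10416 changes were positive. The median of the 7 was 0.13 without vector replicate 2, 0.15 with the GC and length correction and 0.08 with both. ERLIN1, part of a complex that marks sterol-regulated proteins for degradation, stood at 7.83, 7.78 and 7.60 FPKM with the vector and at 10.4, 8.39 and 9.70 FPKM with ARID1B (log2 change 0.26, adjusted p = 0.486). Its partner ERLIN2 had a log2 change of 0.34 (adjusted p = 0.487). Of 12 genes of the branches of the mevalonate pathway, for prenylation, dolichol and ubiquinone, 11 were tested, 0 passed and the median was 0.00. Of 13 genes for sterol efflux, storage and LXR targets, 10 were tested, 0 passed and the median was 0.13, which turned to -0.07 without vector replicate 2 (4 positive, 6 negative). The largest change there was in MYLIP, a ligase for lipoprotein receptors, at 0.57 (adjusted p = 0.508).

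Of 17 genes for other steps of fatty acid supply and elongation, 16 were tested, 0 passed and the median was 0.15, with 3 at an unadjusted p under 0.05. Without vector replicate 2 this median was -0.01 (7 positive, 9 negative). MID1IP1, which promotes the polymerisation of acetyl-CoA carboxylase, stood at 6.31, 6.18 and 6.51 FPKM with the vector and at 4.70, 3.62 and 4.27 FPKM with ARID1B. The groups did not overlap, and the log2 change was -0.50 (standard error 0.114, adjusted p = 0.301). HACD2, a dehydratase of the elongation cycle, stood at 7.84, 5.90 and 7.06 FPKM with the vector and at 11.3, 9.62 and 11.9 FPKM with ARID1B (log2 change 0.59, standard error 0.140, adjusted p = 0.301). These groups did not overlap either. Both genes were named for the smallest p of the list. Over all genes tested, 9.44% had every ARID1B library above every vector library and 11.1% had every one below. Without vector replicate 2 the log2 changes were -0.52 for MID1IP1 (adjusted p = 0.0694) and 0.49 for HACD2 (adjusted p = 0.0799).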

How the data were processed

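RNA-seq libraries of IMR90 cells with vector or ARID1B cDNA (3 each) were grouped by their GEO titles. The authors deposited 1 FPKM value per gene and library. The submitters list TopHat2 (version 2.0.11), HTSeq (version 0.5.3p9) and DESeq2 as tools, with hg19 as the build. The strand setting and role of each are not given in the sources used here. A stranded mRNA kit was used. The genes and lists were chosen with earlier results of these data known.

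The genes whose mean reached 1 FPKM were fitted together on log2(FPKM + 1) by limma 3.58.1 under R 4.3.3, allowing a variance trend, with a pseudocount that understates changes of low genes, two-sided, with Benjamini-Hochberg adjustment over 10416 genes and a threshold of 0.05. The fit was tested on simulated data. Library totals and reads were recovered from FPKM steps, with 10416 of 10416 genes at whole reads in all libraries (tolerance 0.002). Reads with a common divisor come out too small by it. FPKM values of these libraries are scaled to the library total, so a change is relative to all other RNA. Length and GC content were those of the longest GENCODE v29 transcript (98.7% of genes matched), corrected for by natural splines with 5 degrees of freedom each. Promoters came from RefSeq, and no coordinates of hg19 are given.

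Values in every library were given for SREBF1, SREBF2, SCAP, INSIG1, the 4 largest positive and 4 largest negative log2 changes, and the highest gene of each role. At most 2 genes were named from each other list, by the smallest p. PECAM1, also listed as an endothelial marker, could not be matched to a gene of the deposited data and has no value here. Alternatives were no filter or one of 5 FPKM, a pseudocount of 0.1, rescaling by median ratios, a constant variance prior, a replicate block, each library left out in turn, the GC and length correction with and without the block, and voom on recovered reads. The correction without vector replicate 2 and the removal of both libraries numbered 3 were chosen after seeing the data. So was the weight given to the fit without vector replicate 2 among those that left out a library. Tables and plots were made in Python 3.11.15 (scipy 1.17.1, matplotlib 3.10.9).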

Additional observations from a re-analysis of the deposited data

How the results depend on the processing

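Of 17 alternatives, 1 changed a call among the pathway genes: without vector replicate 2, SREBF1 and FASN were called lower. The number called lower was otherwise 0 (range 0 to 2 with each library left out) and the number called higher 0 throughout. With no filter, with either replicate block or without both libraries numbered 3, no gene of the whole table was called, not even ARID1B. The same held without vector replicate 1 and without each ARID1B library in turn. An unchanged call in such settings therefore says little about the pathway genes. The genes' median log2 change ran from 0.02 to 0.20. Over 504 values of single genes under alternatives, 63 had the opposite sign, in 21 of 30 genes. ACAT2, DHCR7, HMGCS1, IDI1, MSMO1 and SC5D stayed positive under all 17. Some of the 17 settings could not change a sign. The filters, the constant variance prior and the replicate block leave each log2 change as it was without them. The count of 504 includes these settings, so it overstates how far the signs were tried. HSD17B7 and INSIG2 stayed positive and SREBF1 negative in all but the filter of 5 FPKM, which they did not pass. Over all genes, 3 were called higher and 0 lower with all libraries. Higher calls were 6 with the GC and length correction, 1 with voom on recovered reads and 0 with no filter or without both libraries numbered 3. Leaving out each library gave 0 to 125 higher and 0 to 199 lower, the upper ends without vector replicate 2. With the correction as well, 133 were higher and 161 lower.

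Deviations of same-numbered libraries from their group mean correlated at -0.46, -0.43 and -0.17. Deviations within a group sum to 0 and vector replicate 2 dominates them. These values therefore cannot decide whether same-numbered samples were handled together. With the replicate block 0 genes were called higher, and 0 with the block and the GC and length correction, and 0 pathway genes passed in either. Whether samples of the same number were infected or prepared together is not given in the sources used here.

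The log2 change took the opposite sign in the following genes, and the cause was not tested. With the GC and length correction, also with the replicate block, it was 0.035 (PMVK), 0.18 (MVD), 0.059 (LSS), 0.046 (SCAP), -0.075 (ACACA), -0.034 (ELOVL6), -0.048 (SCD) and 0.016 (FADS2). With the correction and without vector replicate 2 it was 0.043 (PMVK), 0.063 (MVD), -0.036 (SQLE), 0.12 (EBP), -0.15 (SREBF2), -0.035 (STARD4), -0.20 (ACACA), -0.88 (SCD) and -0.33 (FADS1). With median-ratio rescaling it was 0.0036 for FDFT1. Without both libraries numbered 3 it was -0.010 (FDPS), 0.015 (FDFT1), 0.061 (LSS), -0.054 (NSDHL), 0.080 (INSIG1), 0.023 (FASN) and 0.23 (FADS2). With each library left out it ran from -0.0052 to 0.15 (MVK), -0.064 to 0.073 (FDPS), -0.11 to 0.20 (NSDHL), -0.33 to 0.12 (INSIG1), -0.0088 to 0.19 (ACLY), -0.18 to 0.028 (MVD), -0.086 to 0.038 (FDFT1), -0.31 to 0.11 (LSS), -0.85 to 0.55 (SCD), -0.48 to 0.012 (FASN), -0.68 to 0.25 (FADS2), -0.019 to 0.24 (TM7SF2), -0.29 to 0.11 (EBP), -0.24 to 0.36 (SREBF2), -0.21 to 0.21 (ACACA) and -0.31 to 0.55 (FADS1). For SCD, FADS1, FADS2, SREBF2, ACACA and FASN the lowest value of this range was that without vector replicate 2. The same held for LSS, INSIG1, FDFT1 and TM7SF2, while for NSDHL and EBP that value was the highest. For the genes that varied most, the spread between the 3 libraries of a group, and not depth, limits these values.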

Other observations

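Genes that burn fatty acids or mark fat storage were also measured. Of 10 genes of fatty acid oxidation, 8 were tested and the median log2 change was -0.06, with 0 past the threshold in all libraries. PPARD, a nuclear receptor for fatty acids, stood at 10.6, 8.51 and 10.4 FPKM with the vector and at 7.04, 7.03 and 6.86 FPKM with ARID1B. The groups did not overlap, and the log2 change was -0.44 with all libraries (standard error 0.116, adjusted p = 0.320 from limma) and -0.53 (adjusted p = 0.0328) without vector replicate 2. PPARD was named for the smallest p of its list. Over all genes tested, 11.1% had every ARID1B library below every vector library. Without vector replicate 2, 1.91% were called lower, and the standard errors may then be too small, as for SREBF1 and FASN. Those genes did not pass with the GC and length correction as well, and no corrected p is given here for PPARD. CPT1A, the carnitine transferase that admits fatty acids to mitochondria, stood at 7.32, 7.91 and 7.49 FPKM with the vector and at 6.42, 5.93 and 5.97 FPKM with ARID1B (log2 change -0.27, adjusted p = 0.419).

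FABP4, a fatty acid binding protein of adipocytes and some other cells, stood at 4.98, 10.7 and 5.55 FPKM with the vector and at 2.44, 1.54 and 2.42 FPKM with ARID1B. All ARID1B libraries lay below all vector libraries, and the log2 change was -1.31 with all libraries (standard error 0.280, adjusted p = 0.292 from limma) and -1.01 (adjusted p = 0.0426) without vector replicate 2. It was named after its values were seen, as the only adipocyte marker above 1 FPKM. The shares over all genes, the limit on the standard errors and the lack of a corrected p given for PPARD hold for FABP4 too.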
